A study of Homo sapiens with 4 samples.

Results

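Long intergenic non-coding RNAs carrying a LINC symbol were followed in the established lung carcinoma line A549 with and without induction of A-FOS. The members were chosen by name and by raw count: their symbol is LINC followed by digits, and their counts summed to at least 40 over the 4 libraries. They numbered 267 of the 2225 LINC genes in the files, which list 58051 genes in all. Every cell population carried an A-FOS gene integrated at random with piggyBac and switched on by doxycycline. The plus Dox group had 2 libraries from cells given doxycycline at 1 µg/mL, and the minus Dox group had 2 libraries from the same engineered line without treatment. The labels do not say whether the line was 1 clone, nor whether replicates were grown as separate cultures. The p-values thus reflect the spread between libraries, which may be technical, and doxycycline itself and A-FOS cannot be told apart in this design.

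A LINC symbol is a placeholder given to a long transcript that lies between protein-coding genes, appears not to encode a protein and has no better-founded name. Such RNAs are usually spliced, capped and polyadenylated like messenger RNAs, but are as a rule expressed at lower levels and in fewer tissues. Some act on chromatin or on messenger RNAs, some mark the activity of a nearby enhancer or promoter, and for most no function is known. A-FOS is an engineered FOS with dominant-negative action, which binds JUN proteins and blocks their contact with AP-1 sites in DNA. AP-1 is a family of FOS and JUN dimers, and FOXA1, the other factor named in the title of the series, is a pioneer factor of endoderm-derived tissues such as lung.

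The libraries held 32727539 and 31104964 counts in plus Dox and 36377784 and 40526912 in minus Dox. Values below are CPM (counts of a gene relative to those of its library) scaled by trimmed mean of M-values (TMM), fold changes are plus Dox over minus Dox, and adjusted p-values come from edgeR's quasi-likelihood test, adjusted by Benjamini-Hochberg over all 17715 genes with a summed count of at least 40. A gene with an adjusted p under 0.05 is referred to as called. FOS, whose product supplies the zipper of A-FOS, was at 48.7 and 51.0 CPM in plus Dox and at 1.36 and 1.52 CPM in minus Dox. Whether those reads came from the transgene or from the resident gene was not tested. JUN was at 15.4 and 14.3 CPM in plus Dox, against 49.4 and 52.9 CPM in minus Dox, and FOXA1 was not called. Of 7 epithelial A549 markers measured, 6 were lower in plus Dox, among them KRT8, a keratin of simple epithelia, with 3707 and 3608 CPM in plus Dox and 5222 and 5316 CPM in minus Dox. The lung lineage genes NKX2-1, SFTPB and SFTPC were at or under 0.177 CPM in every library, while NAPSA, the fourth of that list, was at 1.96 and 2.06 CPM in plus Dox and 2.75 and 2.24 CPM in minus Dox and was not called. Each of the 4 blood and immune markers was too low to be tested, as was the liver gene ALB. Of endothelial markers, VWF was called higher and PECAM1 lower, both at or under 0.66 CPM in every library. Of fibroblast markers, COL1A1 had 34.4 and 35.8 CPM in plus Dox and 36.3 and 43.6 CPM in minus Dox and was called lower. PDGFRB was not called, and COL1A2 was too low to be tested. In bulk RNA, fewer cells of a type and less RNA per cell cannot be told apart.

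The promoters of named members that hold an AP-1-like sequence are printed first, because AP-1 is the factor that A-FOS acts on. RefSeq on GRCh38.p14 had an entry of 300 bases, 250 before to 50 after the start, for 184 of the 267 members and for 28 of the named ones. Of these 28, 4 held TGANTCA, a sequence that reads the same on both strands and covers the AP-1 core. They are given 5′ to 3′ on the strand of the gene, in lower case with each match in capitals:
LINC00973: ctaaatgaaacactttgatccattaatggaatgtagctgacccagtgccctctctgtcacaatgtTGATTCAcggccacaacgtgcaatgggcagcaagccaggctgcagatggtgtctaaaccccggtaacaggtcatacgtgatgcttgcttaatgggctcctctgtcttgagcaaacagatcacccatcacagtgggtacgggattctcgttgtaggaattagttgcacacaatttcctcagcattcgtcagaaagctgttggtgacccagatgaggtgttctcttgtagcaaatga
LINC02762: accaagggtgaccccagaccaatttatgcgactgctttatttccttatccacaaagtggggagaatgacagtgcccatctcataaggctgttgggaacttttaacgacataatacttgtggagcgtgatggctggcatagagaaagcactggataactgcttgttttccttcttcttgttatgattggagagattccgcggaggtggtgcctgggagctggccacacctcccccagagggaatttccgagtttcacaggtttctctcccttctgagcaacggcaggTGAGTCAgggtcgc
LINC01271: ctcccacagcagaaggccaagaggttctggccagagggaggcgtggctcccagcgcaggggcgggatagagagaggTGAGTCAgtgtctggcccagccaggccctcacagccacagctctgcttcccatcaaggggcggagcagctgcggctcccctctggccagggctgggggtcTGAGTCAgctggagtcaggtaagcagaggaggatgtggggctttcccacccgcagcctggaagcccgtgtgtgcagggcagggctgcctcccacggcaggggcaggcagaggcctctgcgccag
LINC00963: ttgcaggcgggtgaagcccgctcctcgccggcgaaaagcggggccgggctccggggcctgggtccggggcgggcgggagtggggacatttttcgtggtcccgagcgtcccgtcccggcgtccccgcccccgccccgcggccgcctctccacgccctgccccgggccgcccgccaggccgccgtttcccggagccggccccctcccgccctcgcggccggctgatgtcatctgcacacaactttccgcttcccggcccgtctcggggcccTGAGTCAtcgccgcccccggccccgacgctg
The window of LINC00973 is chr3:98914316-98914615 on the plus strand, and its RefSeq start lies 66.5 kb from the start of the gene in GENCODE 29, so it may belong to another transcript start than the one counted. The window of LINC02762, chr11:112270499-112270798 on the plus strand, and that of LINC01271, chr20:50321293-50321592 on the minus strand, have the same start as the gene in GENCODE 29. The window of LINC00963, chr9:129488410-129488709 on the plus strand, lies 5.21 kb from it. LINC01271 had 2 matches and the others 1 each. LINC00973 was lower in plus Dox, and LINC02762, LINC01271 and LINC00963 were higher.

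Across the members, TGANTCA was present in 17 of 184 promoters (9.24%), against 7.76% of all 27305 promoters in the table and 4.73% of the promoters of tested protein-coding genes. By direction, 3 of 17 promoters of members higher in plus Dox held it (17.6%), as did 4 of 47 of members lower in plus Dox (8.51%) and 10 of 120 of members not called (8.33%). Coding promoters leaned the other way, with 3.66% of higher and 5.41% of lower genes. For 150 of the 184 members, the RefSeq start was within 1 kb of the GENCODE 29 start. TGACGTCA, the longer element that AP-1 and CREB proteins bind, was found in 5 member promoters (2.72%), all of them of members not called, against 1.98% of all promoters. The forkhead sequence TGTTTAC or its complement GTAAACA was in 9 of 184 member promoters (4.89%), against 3.41% of all promoters. By direction it was in 1 of 17 promoters of higher members (5.88%), 5 of 47 of lower members (10.6%) and 3 of 120 of members not called (2.50%). In coding promoters it was in 2.65% of higher and 1.82% of lower genes. The related TGTTTGC or GCAAACA was in 8 of 184 (4.35%), against 3.87% of all promoters. The median ratio of observed to expected CpG was 0.466 in member promoters and 0.367 in those of lower members, against 0.833 in those of tested protein-coding genes. Promoters of members were thus poorer in CpG than coding promoters. A match describes letters in a window and shows neither binding nor a cause, and no match says nothing about the factor.

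The members were mostly faint transcripts. Their median level was 1.09 CPM over the 4 libraries, with a range of 0.282 to 153 CPM. Only 137 reached 1 CPM and 21 reached 10 CPM. Per kilobase of exon the median member stood at 0.562 CPM, against 5.37 CPM per kilobase for tested protein-coding genes. The median summed exon length was 2310 bases in members and 5090 bases in coding genes. A single gene, LINC02582, took 14.0% of all member counts, and the 10 highest took 46.6%. Per length the order was led by LINC02582 with 67.4 CPM per kilobase, followed by LINC03060 with 24.5 CPM per kilobase and LINC00674 with 11.3 CPM per kilobase.

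Summed counts ran from 40 to 21548 with a median of 154. There were 156 members under 200 counts, 81 from 200 to under 1000 and 30 at 1000 or more. Because the rule sums both groups, a member could enter through 1 group alone. Each group by itself reached 40 counts for 161 members, while 19 reached it in plus Dox and not in minus Dox, 38 in minus Dox and not in plus Dox, and 49 only with both groups together. Members that entered through 1 group alone had to differ in raw count, so their part in the counts of calls is not independent of the rule. Just inside the limit were LINC00663, LINC02175 and LINC02614, each with 40 counts. Just outside were LINC01220 and LINC02912 with 39 and LINC03052 with 38. Of the remaining LINC genes, 662 had 1 to 39 counts and 1296 had none in any library. In GENCODE 29, 212 of the members are typed as lincRNA, 21 as processed transcript, 18 as antisense and 11 as transcribed unprocessed pseudogene, while 2 are typed as protein-coding. Over all types, 16 members share over 25% of exon sequence with some other gene, and their counts are uncertain because the strand setting of the counting is not given in the sources used here.

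More LINC genes fell than rose on induction with TMM scaling, while with library size alone the split was even, at 45 higher and 44 lower. With TMM, of the 267 members, 30 were higher in plus Dox (11.2%) and 62 were lower (23.2%), and the other 175 were not called. Over all tested genes 57.5% were called, 28.9% higher and 28.6% lower, and the median log2 fold change was 0.00, against -0.15 for the members. Among protein-coding genes 65.9% were called, 34.0% higher and 31.9% lower. Both member shares were below those of all tested genes, whose counts are mostly higher, and shares at like counts are given further on. At a fitted change of at least 2-fold with a call, 18 members were higher (6.74%) and 43 were lower (16.1%), against 6.4% higher and 5.9% lower over all tested genes and 6.63% and 5.21% of protein-coding genes. Libraries of the groups did not overlap for 166 members (62.2%), against 77.2% of all tested genes and 82.3% of protein-coding ones. Plus Dox was the higher group for 59 of the 166 and the lower for 107.

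The balance thus depended on how libraries were scaled. With library size alone, 50.6% of the called members were higher, against 32.6% with TMM. The same scaling moved the median log2 fold change of all tested genes to 0.21 and that of the members to 0.06, and called 72.8% of the called genes higher. Scaling moves every gene by nearly the same amount, so the gap between these medians could not change with it. The members' median was 0.16 below that of all genes under either scaling. At 2-fold or more, library size alone left 21 members higher (7.87%) and 34 lower (12.7%), against 10.1% and 4.36% of all tested genes. Summed over members, the TMM-scaled level was 995 and 978 CPM in plus Dox and 1211 and 1193 CPM in minus Dox. This gap also depended on scaling. As a share of raw library counts, members took 0.107% and 0.105% in plus Dox and 0.113% and 0.111% in minus Dox.

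**Figure D1:**
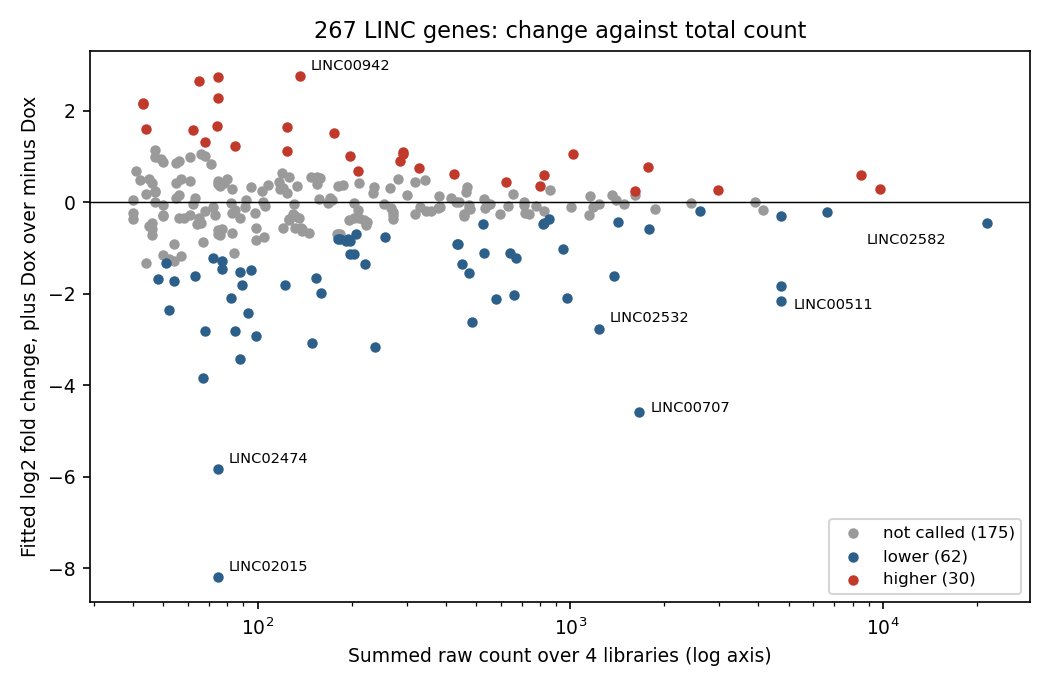
Fitted log2 fold change of each LINC gene (plus Dox over minus Dox, y axis) against its summed raw count over the 4 libraries (x axis, log scale); colours mark the 30 genes called higher, the 62 called lower and the 175 not called. The largest falls reach further from 0 than the largest rises, and the points nearest the left edge have the widest spread.

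Low counts alone limit what can be called, so the members were set beside genes of like count. Under 200 counts, 9.62% of members were higher and 19.2% lower, against 13.9% higher and 10.6% lower for all tested genes in that range. From 200 to under 1000 counts the member shares were 11.1% higher and 25.9% lower, against 27.4% and 21.1% for all genes. At 1000 counts or more they were 20.0% higher and 36.7% lower, against 34.9% and 37.6%. In each range the share of members called higher was below that of all genes, while the share called lower was above it in the lower ranges and close to it in the top one. At 2-fold or more in the top range, 5 of 30 members were lower (16.7%) and 1 was higher (3.33%), against 3.99% and 2.93% of all genes. The other 604 tested genes typed as lincRNA also leaned downward, with 77 higher and 115 lower. Among members typed as lincRNA, 22 were higher and 55 lower of 212, whereas among members of other types 8 were higher and 7 lower of 55. Whether these shares differ was not tested, since members were chosen with earlier results of these data known.

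**Figure D2:**
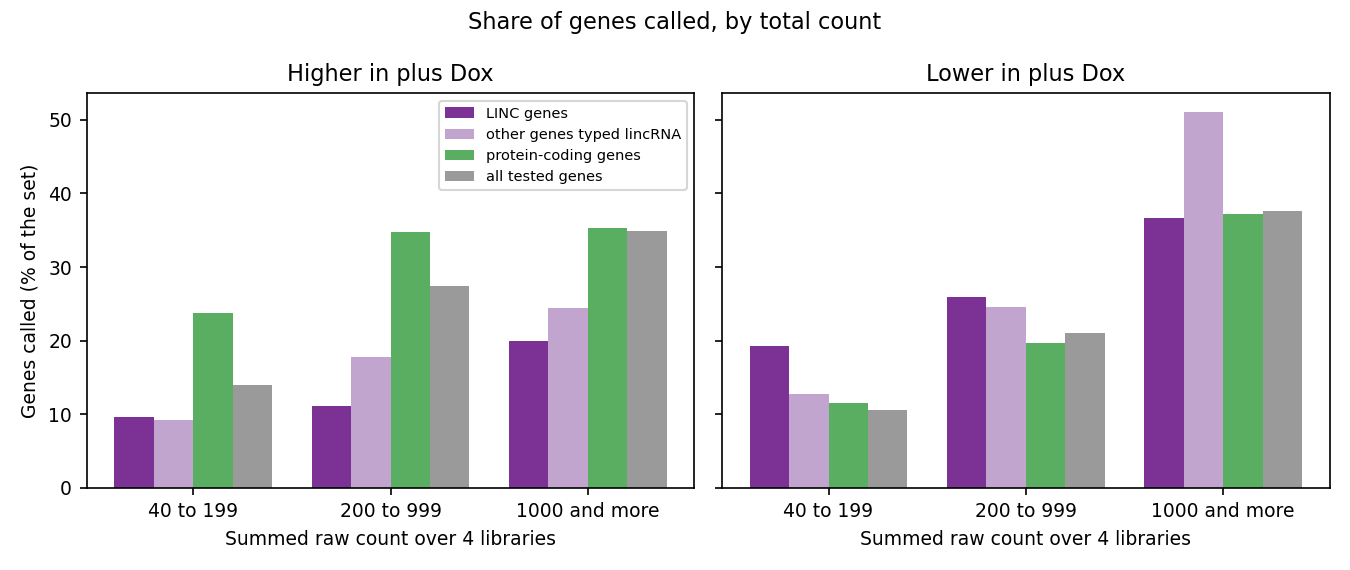
Share of genes called higher (left) and lower (right) in plus Dox, in percent of each set (y axis), by summed raw count (x axis), for LINC genes, other genes typed lincRNA, protein-coding genes and all tested genes. For calls higher in plus Dox, the LINC bar is below the all-gene bar in every range; for calls lower in plus Dox it is 19.2% against 10.6% under 200 counts and 36.7% against 37.6% at 1000 or more.

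The deepest fall among well-counted members was that of LINC00707, an RNA reported to favour growth of lung adenocarcinoma cells, at chromosome 10, 6779549 to 6879450 (GRCh38). It had 1.05 and 0.806 CPM in plus Dox, from 37 and 27 raw counts, against 23.5 and 21.2 CPM in minus Dox, from 795 and 796 raw counts. Its log2 fold change was -4.58 (SE 0.15, adjusted p = 1.58e-26 by edgeR's quasi-likelihood test). The groups were far apart relative to the spread within each. LINC00511, a transcript described as oncogenic in lung and breast cancer, had 12.8 and 11.6 CPM in plus Dox and 53.6 and 55.1 CPM in minus Dox, a log2 fold change of -2.15 (SE 0.08, adjusted p = 1.38e-25). It lies on chromosome 17, 72290091 to 72640472. LINC02532 had 1.85 and 2.63 CPM in plus Dox and 16.2 and 14.2 CPM in minus Dox, a log2 fold change of -2.77. LINC00973 had 1.08 and 0.806 CPM in plus Dox and 5.14 and 6.52 CPM in minus Dox, a log2 fold change of -2.62. In each of these genes every plus Dox library was below every minus Dox library, as the rule that picked the largest falls required. The groups did not overlap for 77.2% of all tested genes.

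At the bottom of the range, LINC02015 had no count in either plus Dox library and 34 and 41 counts in minus Dox. Set against a floor of 3 counts over the group, it was at least 24.0-fold lower in plus Dox; intervals and floors here cover counting error only. LINC02474 had 1 and 0 counts in plus Dox and 34 and 40 in minus Dox, so that minus Dox was 71.2 times plus Dox (exact 95% interval 12.4 to 2848). Fitted values of such genes depend on the prior count, and both were called (adjusted p = 1.96e-08 and 7.72e-08 by edgeR's quasi-likelihood test). Like the other genes of this paragraph, both reached 40 counts in minus Dox and not in plus Dox. Their calls are thus not independent of the count rule. LINC01559 was the best measured of the smaller falls, with 0.398 and 0.269 CPM in plus Dox and 3.10 and 2.93 CPM in minus Dox (log2 fold change -3.16). LINC00705, LINC01583, LINC02742, LINC01460 and LINC02966 had fitted log2 fold changes of -3.43, -3.08, -2.92, -2.81 and -2.43. Their plus Dox libraries lay between 0 and 0.341 CPM and their minus Dox libraries between 0.932 and 1.97 CPM. The size of several of these rested on 1 plus Dox library: without replicate 1 or without replicate 2 of plus Dox the fitted log2 fold change was -2.42 or -8.34 for LINC00705, -4.33 or -2.45 for LINC01583 and -1.95 or -5.04 for LINC01460, each still called. LINC00705 had an adjusted p of 0.111 by DESeq2.

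**Figure D3:**
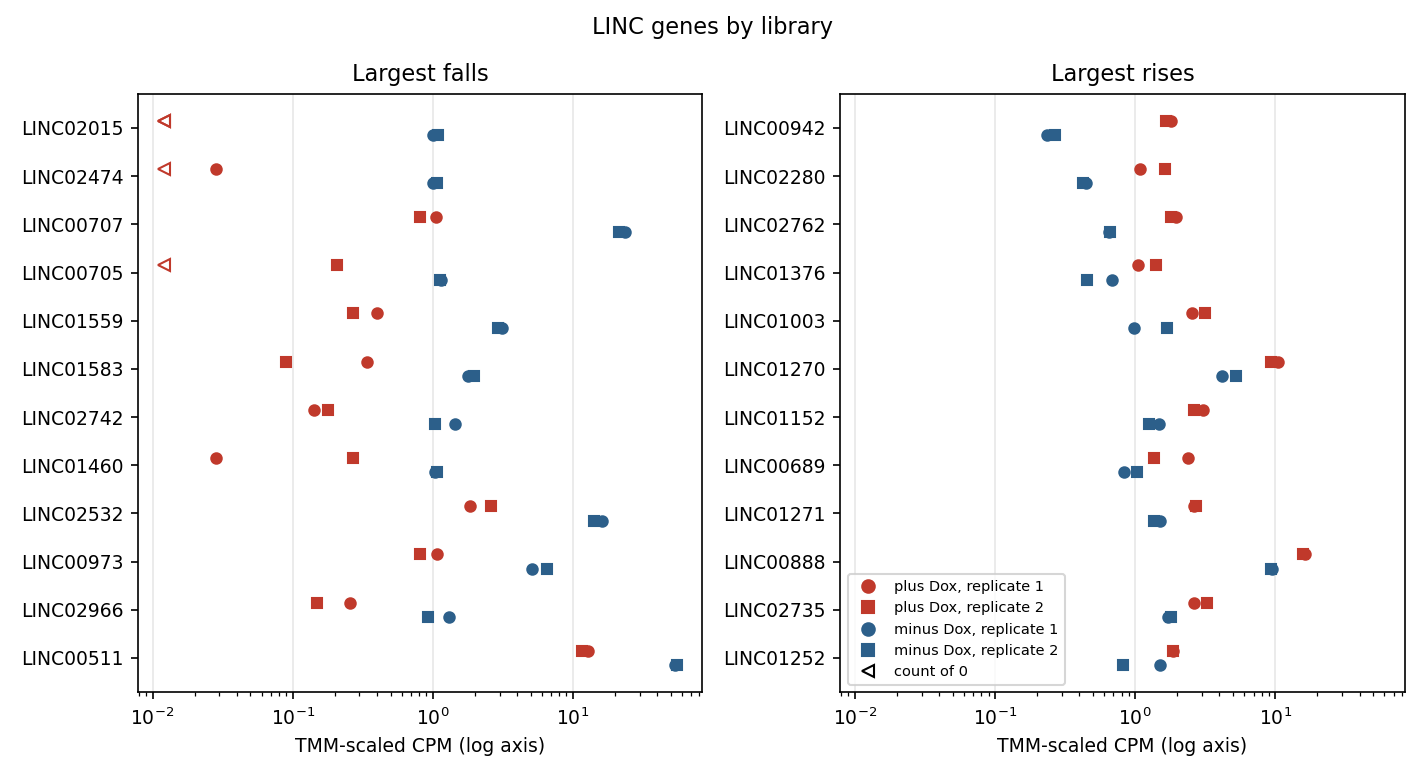
TMM-scaled CPM (x axis, log scale) in each of the 4 libraries for the 12 largest falls (left) and the 12 largest rises (right) among called members with at least 1 CPM in the higher group; red is plus Dox, blue is minus Dox, and open triangles at the left edge mark a count of 0. LINC00707 sits near 1 CPM in plus Dox and above 21 CPM in minus Dox; the genes were chosen to have groups that do not overlap.

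The 12 largest rises among called members with at least 1 CPM in plus Dox were mostly smaller than the falls. LINC00942, on chromosome 12 at 1500525 to 1504424, led them with 1.79 and 1.67 CPM in plus Dox and 0.236 and 0.266 CPM in minus Dox, a log2 fold change of 2.76 (SE 0.41, adjusted p = 2.22e-07 by edgeR's quasi-likelihood test). LINC02280 followed within this set with 1.08 and 1.64 CPM in plus Dox and 0.443 and 0.426 CPM in minus Dox, a log2 fold change of 1.64. LINC02762 had 1.96 and 1.79 CPM in plus Dox and 0.649 and 0.666 CPM in minus Dox, a log2 fold change of 1.51. LINC00888 and LINC01270 were the most abundant of these 12 rises. LINC00888 had 16.3 and 15.8 CPM in plus Dox and 9.42 and 9.32 CPM in minus Dox, a log2 fold change of 0.78 (SE 0.10, adjusted p = 1.17e-08). LINC01270 had 10.5 and 9.25 CPM in plus Dox and 4.16 and 5.27 CPM in minus Dox, a log2 fold change of 1.06. It shares 44.2% of its exon bases with LINC01271 on the opposite strand, which was at 2.64 and 2.72 CPM in plus Dox and at 1.51 and 1.36 CPM in minus Dox. Reads of this antisense pair on chromosome 20 cannot be told apart without the strand setting, so both rises are uncertain. LINC01003 rose with a log2 fold change of 1.09 and LINC01152 with 1.06.

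The other called rises of the 12 each lost their call when 1 or another single library was left out, which also leaves less data for the test. LINC01376 (log2 fold change 1.12) had an adjusted p of 0.146 without plus Dox replicate 2 and 0.115 without minus Dox replicate 2. LINC00689 (1.01) had 0.292 without plus Dox replicate 1, in which it stood at 2.39 CPM against 1.37 CPM in the other plus Dox library. LINC02735 (0.74) had 0.0887 without plus Dox replicate 2, and LINC01252 (0.69) had 0.121, 0.104 and 0.466 without plus Dox replicate 1, plus Dox replicate 2 and minus Dox replicate 2. All of these adjusted p-values are from edgeR's quasi-likelihood test. The log2 fold change of LINC01252 hardly moved without plus Dox replicate 1 (0.68) or plus Dox replicate 2 (0.70), but was 0.31 without minus Dox replicate 2. LINC01376 and LINC01252 were also not called by DESeq2, with adjusted p-values of 0.0701 and 0.179. These genes had 0.453 to 3.25 CPM over the 4 libraries.

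The most abundant members moved by less. LINC02582, at chromosome 18, 73324941 to 73349878, had 130 and 128 CPM in plus Dox and 180 and 175 CPM in minus Dox, a log2 fold change of -0.46 (SE 0.04, adjusted p = 2.84e-12 by edgeR's quasi-likelihood test). The adjacent LINC02864, on the other strand at 73151241 to 73264480, went the opposite way, with 73.4 and 73.5 CPM in plus Dox and 49.4 and 47.4 CPM in minus Dox (log2 fold change 0.60, adjusted p = 2.38e-12). Their nearest coding gene, NETO1, an accessory protein of glutamate receptors, had too few counts to be tested. LINC00963, reported in prostate and lung cancer, had 73.9 and 80.2 CPM in plus Dox and 64.3 and 61.5 CPM in minus Dox (log2 fold change 0.29). LINC03061, on chromosome 13, was the exception in size, with 15.4 and 13.8 CPM in plus Dox and 54.0 and 50.3 CPM in minus Dox (log2 fold change -1.83). LINC00294 had a log2 fold change of -0.31, which with library size alone was -0.10 and not called (adjusted p = 0.222 by edgeR's quasi-likelihood test). LINC01234 had 42.3 and 45.6 CPM in plus Dox and 50.9 and 50.3 CPM in minus Dox. Its log2 fold change of -0.20 turned to 0.0086 with library size alone, and its adjusted p was 0.156 without plus Dox replicate 1.

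Of a list of LINC genes with a described role in cancer or development, 14 were in the files and 11 were members. LINC00460, LINC00520 and LINC00958 had only 35, 7 and 3 counts over the 4 libraries. Among the 11, 5 were lower in plus Dox, 2 were higher and 4 were not called. Over all tested genes 28.6% were lower, 28.9% were higher and 57.5% were called in either direction. Besides LINC00707 and LINC00511, the lower ones included LINC00857, reported to favour growth of lung adenocarcinoma cells, with 5.29 and 4.24 CPM in plus Dox and 15.0 and 14.4 CPM in minus Dox (log2 fold change -1.62). LINC00941 had 2.59 and 2.66 CPM in plus Dox and 11.2 and 11.1 CPM in minus Dox (log2 fold change -2.09). All of its 1355 exon bases are shared on the same strand with other entries of GENCODE 29, so its level is uncertain. An entry that bears the same name shares 1250 bases, and another lincRNA entry shares 105. LINC01116 had a log2 fold change of -0.45, with an adjusted p of 0.161 when scaled by library size alone, 0.155 without plus Dox replicate 1 and 0.0619 by DESeq2. The higher ones were LINC00467 (0.61), with 6.76 and 7.52 CPM in plus Dox and 4.72 and 4.66 CPM in minus Dox, and LINC02381 (0.45). The call of LINC02381 was lost without plus Dox replicate 1, plus Dox replicate 2 or minus Dox replicate 1 (adjusted p = 0.0761, 0.0566 and 0.119) and by DESeq2 (adjusted p = 0.104).

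The 4 members of this list that were not called were LINC00261, LINC01503, LINC01133 and LINC00662. LINC00261, which neighbours FOXA2 and is needed for endoderm differentiation, had 1.59 and 1.10 CPM in plus Dox and 1.89 and 1.78 CPM in minus Dox (log2 fold change -0.44, adjusted p = 0.179 by edgeR's quasi-likelihood test), and 86.1% of its exon bases are shared on the same strand with an entry typed as coding. LINC01503, described in squamous carcinoma, had 4.15 and 3.43 CPM in plus Dox and 3.78 and 4.07 CPM in minus Dox. Its groups overlapped. LINC00662 had 17.2 and 17.5 CPM in plus Dox and 17.3 and 17.6 CPM in minus Dox. Its log2 fold change was -0.01 with TMM and 0.20 with library size alone (adjusted p = 0.0471).

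Long non-coding RNAs outside the LINC naming scheme were set beside these. Of 22 in a list, with TMM, 10 were higher in plus Dox (45.5%), 8 were lower (36.4%) and 4 were not called. Over all tested genes 28.9% were higher and 28.6% lower. The 22 had a median log2 fold change of 0.15 and a median level of 14.0 CPM, against 1.09 CPM for the members. The abundant nuclear RNAs MALAT1 and NEAT1 were lower, MALAT1 with 132 and 120 CPM in plus Dox and 268 and 269 CPM in minus Dox, and NEAT1 with 220 and 210 CPM in plus Dox and 493 and 517 CPM in minus Dox. H19, an imprinted RNA of fetal tissues, had 4.18 and 4.68 CPM in plus Dox and 0.443 and 0.293 CPM in minus Dox (log2 fold change 3.59). LUCAT1, an RNA of stress responses, had 17.8 and 18.0 CPM in plus Dox and 6.67 and 6.58 CPM in minus Dox (log2 fold change 1.43). Among former LINC genes since found to encode small proteins, NBDY was higher (0.22), MTLN was lower (-0.27), SMIM26 was not called and SPAAR had too few counts to be tested.

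Each member was paired with its nearest protein-coding gene in GENCODE 29, since some LINC RNAs share regulatory DNA with a neighbour. The median gap was 15870 bases, and 22 members overlapped their neighbour. Between a tested coding gene and its nearest tested coding gene, a narrower choice of neighbours, the median gap was 2860 bases. Of the 220 pairs whose neighbour was tested, 62 had both genes called. Of these, 38 moved in the same direction (30 both lower, 8 both higher) and 24 in opposite directions. The share in the same direction, 61.3%, was close to the 63.0% of 6012 pairs of called coding neighbours. Those coding pairs were drawn among tested genes only, and genes nearest to each other were counted from both sides. Pairing by distance gave 13 of 19 in the same direction when overlapping or under 5 kb apart (68.4%). It gave 16 of 24 at 5 to 50 kb (66.7%) and 9 of 19 beyond 50 kb (47.4%). For coding pairs the shares also declined with distance, at 66.0%, 60.5% and 57.9%. The Spearman correlation of the fold changes in these ranges was 0.36, 0.23 and 0.03 over 76, 86 and 58 pairs, against 0.26, 0.18 and 0.10 for coding pairs. These are descriptions across genes of the same 4 libraries. Without plus Dox replicate 1, 31 pairs moved together and 15 apart.

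**Figure D4:**
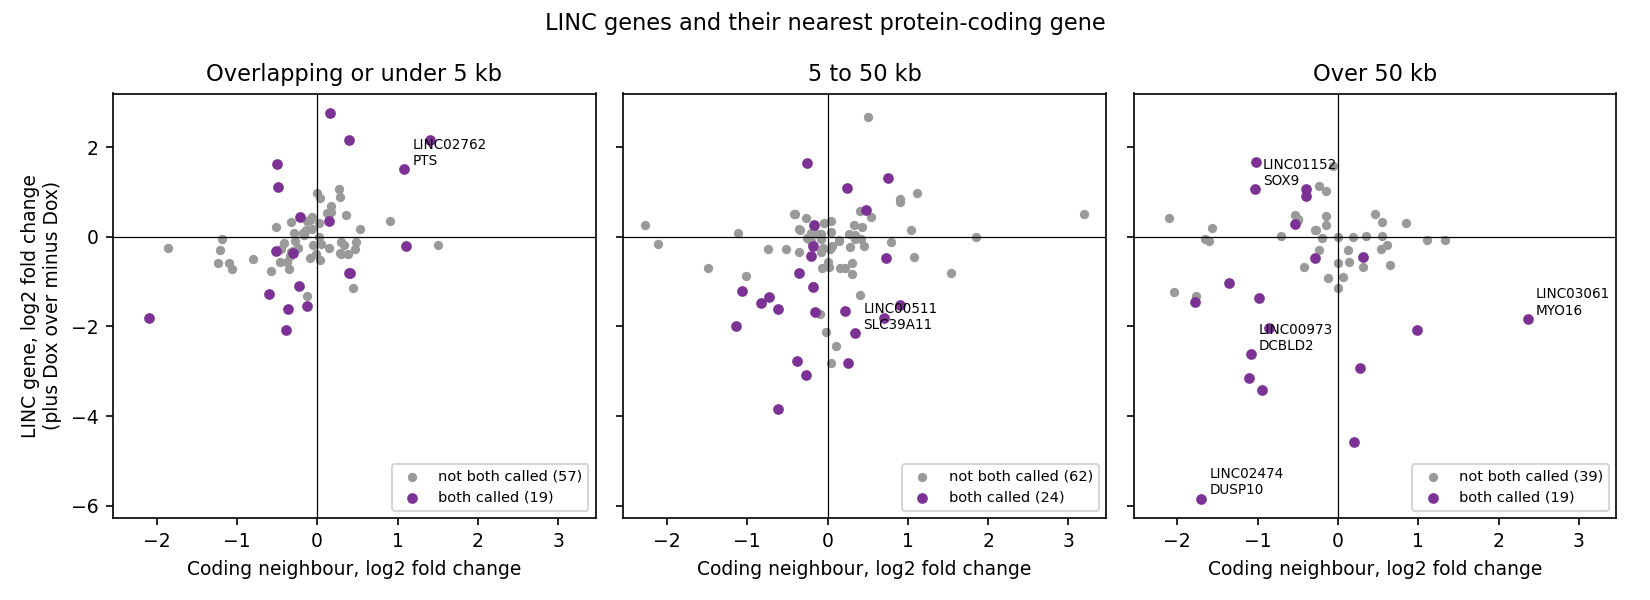
Log2 fold change (plus Dox over minus Dox) of each LINC gene (y axis) against that of its nearest protein-coding gene (x axis), for pairs overlapping or under 5 kb apart, 5 to 50 kb apart and over 50 kb apart; purple points have both genes called. The Spearman correlation is 0.36 in the nearest class and 0.03 in the farthest, against 0.26 and 0.10 for pairs of coding genes.

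Seen from the members, the tested neighbours of the 62 lower members were lower in 30 cases, higher in 14 and not called in 11, with a median log2 fold change of -0.18. Those of the 30 higher members were higher in 8 cases, lower in 10 and not called in 4, with a median of -0.10. Those of the members not called were higher in 44 cases, lower in 53 and not called in 46, with a median of -0.05. Of all tested protein-coding genes, 34.0% were called higher and 31.9% lower. Whether neighbours differ from these shares was not tested. Several of the largest changes stood beside coding genes that moved the other way or by far less. LINC00707 lies 199248 bases from PRKCQ, a protein kinase C, whose log2 fold change was 0.20, and LINC00511 lies 5.48 kb from SLC39A11, a zinc transporter, with 0.34. LINC03061 lies 61.6 kb from MYO16, an unconventional myosin, which had a log2 fold change of 2.36 while LINC03061 had -1.83. LINC01152 lies 79.7 kb from SOX9, a transcription factor of lung and cartilage development, which fell by 1.04 on the log2 scale. LINC00942 lies 4.59 kb from ERC1, with 0.16, and LINC01270 lies over 100 kb from CEBPB, a transcription factor, with -0.40.

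Other neighbours moved with their member. LINC02762 lies 0.794 kb from PTS, an enzyme of tetrahydrobiopterin synthesis, on the same strand, and PTS had a log2 fold change of 1.08. Whether reads running past the end of PTS entered the count of LINC02762 was not tested. LINC02474 lies 224 kb from DUSP10, a phosphatase of the stress-activated MAP kinases, which fell by 1.70. LINC00973 lies 79.4 kb from DCBLD2, a membrane receptor, which fell by 1.09, and LINC00705 and LINC01559 had neighbours, AKR1E2 and GRIN2B, that fell by 0.94 and 1.11. LINC00857 lies 2.14 kb from ANXA11, an annexin, which fell by 0.37, and LINC00941 lies 0.216 kb from CAPRIN2 in divergent arrangement, which fell by 0.39. LINC00467 lies 7.86 kb from TRAF5, an adaptor of TNF receptor signalling, which rose with a log2 fold change of 0.47.

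Some further pairs were picked out after their values were seen. LINC02777, 98.5 kb from JUN itself, had 0.426 and 0.149 CPM in plus Dox and 0.826 and 0.772 CPM in minus Dox (log2 fold change -1.45), beside -1.78 for JUN. Its call was lost without plus Dox replicate 2 (log2 fold change -0.90, adjusted p = 0.212 by edgeR's quasi-likelihood test) and by DESeq2 (adjusted p = 0.0762), and without plus Dox replicate 1 its log2 fold change was -2.39. LINC00592 overlaps KRT80, a keratin, on the opposite strand, and had a log2 fold change of -1.81 beside -2.09 for KRT80. LINC02901, 50.5 kb from EZR, a linker of actin to the membrane, had 1.85 and 1.73 CPM in plus Dox and 4.16 and 5.00 CPM in minus Dox (-1.36), beside -0.98 for EZR. LINC02747, 108 kb from MYEOV, had 4.21 and 4.63 CPM in plus Dox and 8.41 and 9.64 CPM in minus Dox (-1.03), beside -1.35 for MYEOV. Going the other way, LINC02889 had -2.09 beside 0.98 for AHR, the aryl hydrocarbon receptor, 59.3 kb away. It had 1 and 14 counts in plus Dox, so its fold rested on either library: the log2 fold change was -1.17 without plus Dox replicate 1 (adjusted p = 0.0762 by edgeR's quasi-likelihood test, not called) and -4.89 without plus Dox replicate 2, and DESeq2 did not call it (adjusted p = 0.236). LINC02724 had 1.68 beside -1.02 for RPS6KA4, a kinase downstream of MAP kinases. Except for LINC02901 and LINC02747, the members named here were at about 1 CPM or less in both groups.

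Members that lie close together were set side by side, where 34.5% of all members and 57.5% of all tested genes were called. Whether their calls go together more or less often than these shares give was not tested. Within 100 kb of one another lay 39 members in 18 clusters, and 3 of these clusters held more than 1 called member. In 2 of them the called members went in 1 direction: LINC01909 and LINC01910, both lower beside SOCS6, and the antisense pair LINC01270 and LINC01271. LINC01909 had 13 and 2 counts in plus Dox and 17 and 31 in minus Dox, and its call was lost without plus Dox replicate 2 (adjusted p = 0.277 by edgeR's quasi-likelihood test), without minus Dox replicate 2 (adjusted p = 0.157) and by DESeq2 (adjusted p = 0.102), which leaves LINC01910 as the only called member of its cluster. Its log2 fold change of -1.60 was -3.41 without plus Dox replicate 1 and -0.85 without plus Dox replicate 2. In the remaining one, LINC02582 and LINC02864 went opposite ways. LINC01910 had 1 and 3 counts in plus Dox and 29 and 34 counts in minus Dox, and SOCS6, a suppressor of cytokine signalling, had 38.8 and 40.9 CPM in plus Dox and 62.3 and 59.4 CPM in minus Dox.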

How the data were processed

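PolyA RNA from 4 libraries of A549 cells with inducible A-FOS was measured by a stranded mRNA kit and paired-end sequencing, per the labels' protocols. The authors deposited raw gene counts under Ensembl identifiers, in a file for each library; the sources used here give neither the annotation release nor the strand setting. The tools featureCounts 2.0.3, STAR 2.7.10b, cutadapt 4.0, DRAGEN and DESeq2 2.11.40.7 are named, without a role, per the submitters' processing notes. Totals ran from 31104964 to 40526912 counts, so 3 counts in a library equal 0.0799 to 0.0895 CPM. Symbols came from a gene name table, positions, types and exon lengths from GENCODE 29 (GRCh38), in which all 267 members were found, and promoters from RefSeq.

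Genes with a summed count of at least 40 were tested with edgeR 4.0.16 in R 4.3.3 (TMM, quasi-likelihood test, Benjamini-Hochberg adjustment over 17715 genes, threshold 0.05), with no covariate. This limit, which looks at both groups alike, replaced edgeR's filterByExpr so that every member was tested. The pipeline was tested on simulated data. Alternatives were library size only, RLE, DESeq2 1.42.0, filterByExpr, no filter, a replicate block, each library left out, higher count limits for members, members sharing under 25% of exon bases, and other definitions of a neighbour. Named members were the 12 largest rises and falls among called members with at least 1 CPM in the higher group and groups that did not overlap, the 6 highest, those of a described-role list, and 3 on either side of the count limit. The members and lists were chosen with earlier results of these data known, so no list was tested and shares are given beside those of all tested genes.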

Additional observations from a re-analysis of the deposited data

How the results depend on the processing

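Over the settings that change the fit, members called higher ranged from 19 (DESeq2) to 45 (library size only) and lower from 41 (DESeq2) to 65 (replicate block). DESeq2 called 60 members (19 higher, 41 lower), with 25 neighbour pairs in the same and 14 in opposite directions. With 400 or more counts, 37 members were called (10 higher, 27 lower). Leaving out each library in turn gave 75 to 82 called members, 22 to 25 higher and 50 to 57 lower, and 28 to 34 pairs in the same and 15 to 20 in opposite directions, 15 of them without plus Dox replicate 1. With neighbours within 50 kb, 29 pairs moved together and 14 apart. With library size alone LINC01234 turned to 0.0086 and LINC00662 to 0.20 on the log2 scale. The TMM factors were 1.075 and 1.077 in plus Dox and 0.931 and 0.927 in minus Dox. Leaving them out raises the log2 fold change of every gene by nearly the same amount, so these shifts are not particular to the 2 genes. Of 30 higher and 62 lower members, 15 and 34 were called in the same direction in all 10 alternative fits. Of 42 named members, 32 had the same call and direction in every one. Calls that were lost are given beside the genes. RLE, no filter, the replicate block and filterByExpr, which drops LINC02175, changed none among the members named by the rule. The labels do not say whether replicate numbers pair the libraries. Deviations of same-numbered libraries correlated at 5.56e-05 over all tested genes and at 0.0231 over those of at least 1 CPM. With 2 libraries per group this cannot decide whether same-numbered libraries were handled together. A fit with the replicate number as a block called 30 members higher and 65 lower, with 42 pairs of neighbours in the same and 25 in opposite directions. Depth limits the members under 200 counts most, where a missing call does not show that a gene did not change.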
